A study of Homo sapiens with 6 samples.

Results

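The genes described here are 10 members of the Eph receptor and ephrin family, EPHB2, EPHB3, EPHB4, EFNB1, EFNB2, EPHA1, EPHA2, EPHA4, EFNA1 and EFNA4. They were picked by gene symbol from the 26490 symbols of the deposited count table, and all 10 have a row in it. The table holds RNA-seq read counts of SW403, an established human colon adenocarcinoma line. It has 3 control libraries, with genotype WT in the labels and the letters NS, which the labels do not explain, in the column names. The 3 other libraries come from cells with IRS2 knocked down, whose column names carry the letters KO. IRS2 is an adaptor that relays signals from the insulin and IGF1 receptors. All 6 cultures were grown in DMEM with serum and received no treatment. How IRS2 was lowered, and whether more than 1 knockdown line was made, is not given in the sources used here.

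Eph receptors are tyrosine kinases whose ligands, the ephrins, are held on the surface of neighbouring cells, so the pair signals only at cell contacts and in both directions. A-type ephrins are tied to the membrane by a lipid anchor, whereas B-type ephrins cross it and have a short cytoplasmic tail. EPHA receptors bind mostly ephrin-A and EPHB receptors mostly ephrin-B, with EPHA4 known to bind both kinds. In the intestinal crypt, EPHB2 and EPHB3 are Wnt targets that are high at the base, ephrin-B is higher toward the top, and repulsion between the cells that carry them keeps proliferating and differentiated cells apart.

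The libraries held 11816973 to 12585013 counts in control and 14329348 to 18114656 in knockdown, so each knockdown library was deeper than each control library. IRS2 averaged 33.2 ± 1.42 CPM (counts scaled to the library's total) in the control libraries and 12.4 ± 0.535 CPM after knockdown (SD, n = 3), with adjusted p = 3.12e-11 in edgeR's quasi-likelihood test. Of 10 colon epithelium markers, 6 passed the filter on low counts, KRT8, KRT18, KRT19, EPCAM, CDX2 and VIL1. KRT20 and CDX1 had no read in any library, and CDH1, which encodes E-cadherin, had between 0 and 5. Endothelial markers summed to at most 1.11 CPM and leukocyte markers to at most 1.99 CPM in any library. Fibroblast markers summed to between 9.56 and 28.1 CPM in control and between 5.98 and 7.40 CPM in knockdown. The highest of these sums was in control replicate 1, which had 193 reads of the collagen gene COL1A1 against 72 and 67 in replicates 2 and 3.

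Among the members, the crypt base receptor EPHB2 and the receptor EPHA4 were higher after IRS2 knockdown, while EPHB3, the usual companion of EPHB2, had overlapping values in both groups and a log2 fold change near 0. EPHB2 rose 1.52-fold and EPHA4 1.46-fold. The 7 other tested members did not pass the threshold, an adjusted p under 0.05 over all 13832 genes tested. EPHA1 had too few reads to pass the low-count filter. So 2 of the 9 tested members were called higher, a share near the background, since 19.3% of all tested genes were, and 0 were called lower, where 19.2% of all tested genes were. In either direction 38.5% of all tested genes were called, 2676 higher and 2653 lower. The split of these calls depends on scaling, with 2206 higher and 3198 lower by library size alone and 4180 higher and 1972 lower once transcript length and GC content were corrected for. At an unadjusted p under 0.05, edgeR gave 3 members higher and 1 lower, and DESeq2's Wald test and limma voom called 0 members lower at the adjusted threshold. The median log2 fold change was 0.08 for the 9 members and -0.0039 for all tested genes. In CPM, 3 members were higher in every knockdown library than in any control library, and 2 were lower. The same held for 19.6% and 28.8% of all tested genes. The labels call the replicates biological and say that cells were seeded in triplicate, so p-values measure the spread between cultures of these lines.

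**Figure D1:**
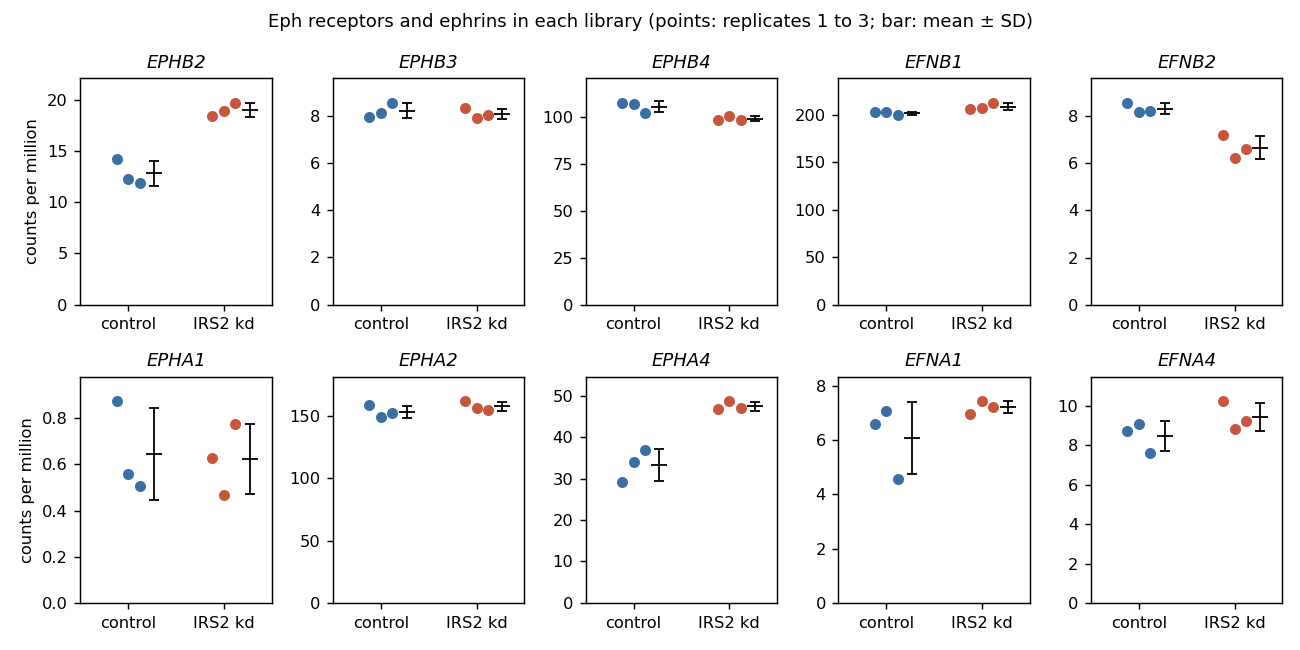
CPM (y axis, from 0) of the 10 members in the 3 control and 3 IRS2 knockdown libraries, with the mean ± SD beside each group. The points of EPHB2 lie between 11.9 and 14.2 in control and between 18.4 and 19.8 in knockdown, and those of EPHA4 between 29.2 and 36.9 and between 46.7 and 48.7.

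The stretches just upstream of the transcription starts of EPHB2, EPHB3 and EPHA4 are shown because EPHB2 and EPHA4 are the members that rose and EPHB3 is the crypt partner that did not. Each is the 250 bases before the start, 5′ to 3′ on the gene's strand, from RefSeq on GRCh38.p14, and capitals mark GC boxes (GGGCGG on either strand).
EPHB2, chr1:22710589-22710838, plus strand: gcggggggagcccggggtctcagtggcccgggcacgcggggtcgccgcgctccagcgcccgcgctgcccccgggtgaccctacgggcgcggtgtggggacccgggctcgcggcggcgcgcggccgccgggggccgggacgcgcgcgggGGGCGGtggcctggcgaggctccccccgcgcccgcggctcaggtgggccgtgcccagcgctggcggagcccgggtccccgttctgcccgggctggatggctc
EPHB3, chr3:184561535-184561784, plus strand: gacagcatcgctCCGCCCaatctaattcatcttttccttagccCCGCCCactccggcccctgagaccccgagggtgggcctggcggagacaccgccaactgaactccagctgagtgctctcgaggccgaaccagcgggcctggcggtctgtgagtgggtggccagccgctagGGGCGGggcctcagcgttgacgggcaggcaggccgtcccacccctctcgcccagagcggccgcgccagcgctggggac
EPHA4, chr2:221572305-221572554, minus strand: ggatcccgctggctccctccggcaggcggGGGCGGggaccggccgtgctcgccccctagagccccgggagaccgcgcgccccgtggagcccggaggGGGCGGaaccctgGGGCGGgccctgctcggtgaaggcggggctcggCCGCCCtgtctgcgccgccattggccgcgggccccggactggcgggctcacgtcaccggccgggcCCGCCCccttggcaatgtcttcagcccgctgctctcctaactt
The RefSeq table held promoters of all 10 members. For each, the start was used that matches the first bases of the gene's canonical transcript. The EPHB2 stretch is the richest in G and C of the 10, at 84.8% with 41 CG pairs, against 70.0% and 21 pairs for EPHB3 and 78.0% and 30 pairs for EPHA4. For comparison, the first listed promoter of each gene symbol was taken, without matching it to a canonical transcript. The median of these 27305 promoters was 58.0% with 11 CG pairs. A GC box occurred in the window of all 10 members, once in EPHB2, 3 times in EPHB3 and 5 times in EPHA4, and in 42.3% of the 27305 promoters. The site of the TCF and LEF factors of the Wnt pathway was searched as CTTTGAA, as CTTTGAT, as CTTTGTA and also as CTTTGTT. It occurred on neither strand of any of the 10 windows and in 12.1% of the 27305 promoters. That says only that these letters are not in the windows.

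EPHB2 encodes a B-type receptor used as a marker of crypt base cells, and lies on chromosome 1 (GRCh37, 23037332 to 23247993, plus strand, 16 exons). It was at 14.2, 12.3 and 11.9 CPM in control replicates 1, 2 and 3 and at 18.4, 18.9 and 19.8 CPM in the knockdown replicates. Every knockdown library was above every control library. In edgeR the log2 fold change was 0.60 ± 0.09 (SE; adjusted p 1.62e-05). Of the annotated genes within EPHB2, the 2 microRNA genes that the count table lists, MIR4684 and MIR4253, had no read. A long non-coding RNA gene on the other strand shares 1137 bases with EPHB2 and is not in the count table.

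EPHB3 encodes the B-type receptor that acts beside EPHB2 in crypt cell positioning, and lies on chromosome 3 (184279573 to 184300196, plus strand). Its control libraries were at 7.95, 8.12 and 8.55 CPM and its knockdown libraries at 8.30, 7.91 and 8.005 CPM. The ranges of the groups overlapped. In edgeR it had a log2 fold change of 0.0062 ± 0.11 (SE; adjusted p 0.974). This rests on 100 to 145 reads per library. The sign of so small a value turned with other scalings, and its size stayed under 0.04 in all 20 alternative fits.

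EPHB4, the B-type receptor best known for binding ephrin-B2 between veins and arteries, was higher per length than EPHB2 and EPHB3. It lies on chromosome 7 (100400187 to 100425145, minus strand) and shares 704 bases with SLC12A9 on the other strand. How strand was used in the counting is not given in the sources used here. Control libraries were at 108, 107 and 102 CPM and knockdown libraries at 98.7, 101 and 98.5 CPM. All knockdown values lay below the control values, but the log2 fold change of -0.06 ± 0.04 (SE) did not pass (edgeR adjusted p 0.236). It passed in 1 of 20 alternative fits.

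The ligand EFNB1, ephrin-B1, had the most reads of the members. It lies on chromosome X (68048864 to 68062003, plus strand). The control values were 203, 203 and 200.1 CPM and the knockdown values 206, 208 and 213 CPM. The log2 fold change was 0.08 ± 0.03 (SE), with an edgeR adjusted p of 0.0615. The other B-type ligand, EFNB2, differed in the opposite direction. It was at 8.58, 8.20 and 8.21 CPM in control and at 7.19, 6.21 and 6.62 CPM in knockdown, again with no overlap. Its log2 fold change was -0.29 ± 0.12 (SE), with an edgeR adjusted p of 0.0594. Both ligands thus lay just outside the threshold, and they passed under some of the other settings (each in 4 of 20 alternative fits). EFNB2 and IRS2 are both on the long arm of chromosome 13, 3.22 Mb apart (EFNB2 at 107142093 to 107188010, minus strand). A long non-coding RNA gene on the other strand shares 30484 bases with EFNB2 and is not in the count table.

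EPHA4 was the A-type receptor among the members that rose. It encodes a receptor known from axon guidance, and lies on chromosome 2 (222282747 to 222438922, minus strand, 18 exons). A long non-coding RNA gene on the other strand shares 1697 bases with EPHA4 and is not in the count table. EPHA4 was at 29.2, 33.9 and 36.9 CPM in control and at 46.7, 48.7 and 47.0 CPM in knockdown. The control values were spread more widely than the knockdown values, and the groups did not overlap. The log2 fold change was 0.54 ± 0.07 (SE), with an edgeR adjusted p of 2.38e-06. Without control replicate 1, the lowest of the 6, it was 0.45.

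EPHA2, a receptor that is widely expressed in epithelial cancers, was the most abundant receptor of the members. It lies on chromosome 1 (16450832 to 16482564, minus strand), 6.55 Mb from EPHB2. Its values were 159, 149 and 152 CPM in control and 162, 156 and 155 CPM in knockdown. The groups overlapped, and the log2 fold change of 0.07 ± 0.04 (SE) did not pass (edgeR adjusted p 0.144). It passed in 2 of 20 alternative fits, those that applied the correction for length and GC content without centring it. EPHA1, the founding member of the family, was barely detected, with 11, 7 and 6 reads in control and 9, 8 and 14 in knockdown. It lies on chromosome 7 (143087382 to 143105949, minus strand) and shares 823 bases with ZYX on the other strand, a gene with 2017 to 3333 reads per library, so even these few reads may not all be its own. Its antisense gene EPHA1-AS1 had 1 read in all.

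The A-type ligands EFNA1 and EFNA4 lie 58.3 kb apart on chromosome 1 (EFNA1 at 155100352 to 155107375 and EFNA4 at 155036213 to 155042029, both plus strand), with the related gene EFNA3 between them. EFNA1, ephrin-A1, the main ligand of EPHA2, was at 6.60, 7.09 and 4.57 CPM in control and at 6.98, 7.44 and 7.23 CPM in knockdown. The low value of control replicate 3, from 54 reads, made the widest relative spread of the tested members. The log2 fold change was 0.27 ± 0.15 (SE; edgeR adjusted p 0.159), and 0.11 without that library. EFNA4, ephrin-A4, was at 8.74, 9.08 and 7.62 CPM in control and at 10.3, 8.85 and 9.22 CPM in knockdown, with overlap and a log2 fold change of 0.18 ± 0.11 (SE; edgeR adjusted p 0.232). EFNA3, ephrin-A3, had a log2 fold change of 0.33 ± 0.19 (SE; edgeR adjusted p 0.195). Without control replicate 3 the value for EFNA4 was 0.11, and without control replicate 2 that for EFNA3 was 0.21. The 3 neighbours thus had values above 0, none past the threshold. An annotated readthrough gene, EFNA4-EFNA3, covers EFNA4 and was not analysed here.

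Levels can be compared between genes only per length. In RPKM, which divides CPM by the canonical transcript's length in kilobases, EFNB1 was highest in control at 61.2 ± 0.496, followed by EPHA2 at 38.9 ± 1.24 and EPHB4 at 24.3 ± 0.661 (SD, n = 3 each). EFNA4 at 6.76 ± 0.610, EPHA4 at 5.24 ± 0.606 and EFNA1 at 3.92 ± 0.859 RPKM came next (SD, n = 3 each). The lowest EPHA4 library, at 4.60, lay just above the highest EFNA1 library, at 4.57. EPHB3, EFNB2 and EPHB2 were low, at 1.94 ± 0.0730, 1.67 ± 0.0436 and 1.16 ± 0.111 RPKM, and EPHA1 was lowest at 0.195 ± 0.0600 RPKM (SD, n = 3 each). In knockdown, EPHB2 at 1.73 ± 0.0613 RPKM stood above EFNB2 at 1.34 ± 0.0982 RPKM (SD, n = 3 each), the reverse of their order in control by this length. The canonical EPHB2 transcript is 11035 nt long, against 4234 nt for EPHB3. Per coding length, 2958 and 2994 nt, a setting added after the data were seen, EPHB2 was above EPHB3 in control, at 4.34 against 2.74. By that length EFNB2 was above EPHB2 in both groups, at 8.34 against 4.34 in control and 6.68 against 6.44 in knockdown. The place of EPHB2 relative to EPHB3 and EFNB2 therefore depends on the length used.

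**Figure D2:**
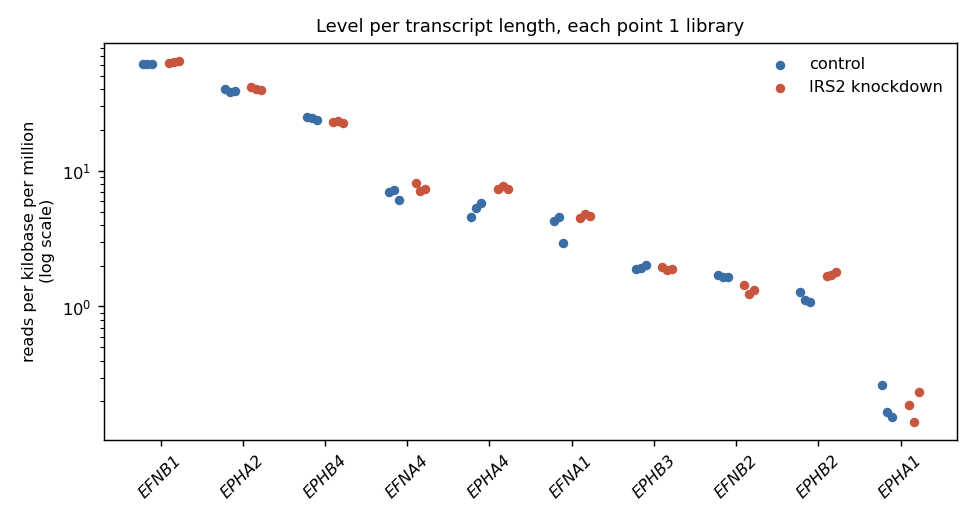
RPKM by canonical transcript length (y axis, log scale) of the 10 members, each point 1 of 3 control or 3 IRS2 knockdown libraries, ordered by the control mean. EFNB1, EPHA2 and EPHB4 lie above 20 in every library and EPHA1 below 0.3.

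Ratios of 2 members within a library do not depend on how libraries are scaled. Of 7 planned pairs, 6 had enough reads. The ratio of EPHB3 to EPHB2 reads was 0.559, 0.658 and 0.716 in the control libraries and 0.451, 0.418 and 0.405 in the knockdown libraries, with no overlap. The log2 difference was -0.60, and EPHB3 reads were fewer per EPHB2 read in each knockdown library than in any control library. The ligand to receptor ratio EFNB1 to EPHB2 was 14.3, 16.4 and 16.8 in control and 11.2, 10.98 and 10.8 in knockdown, a log2 difference of -0.52. For EPHB4 to EPHB2 the log2 difference was -0.66, for EFNB2 to EFNB1 it was -0.37 and for EPHA4 to EPHA2 it was 0.48. None of these 5 ratios overlapped between groups, and EFNA4 to EFNA1 did (-0.11). Each of the 5 had p = 0.1 in a two-sided exact permutation test, the smallest that 3 against 3 allows, and 0.12 after adjustment over the 6 pairs. The ratios share genes, with EPHB2 under EPHB3, EPHB4 and EFNB1, and EPHA4 over EPHA2. They are therefore not independent of each other or of the rises of EPHB2 and EPHA4. The share of all gene pairs without overlap was not computed.

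**Figure D3:**
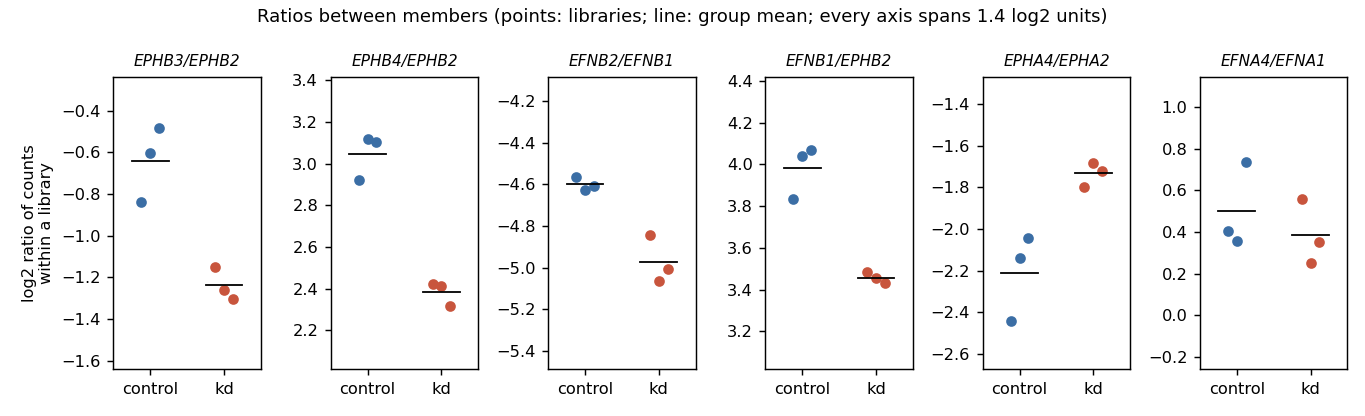
Log2 ratio of read counts of 2 members within a library (y axis, each panel spanning the same range), for 3 control and 3 IRS2 knockdown libraries, with a line at each group mean. In 5 of the 6 panels the groups do not overlap, and in the panel of EFNA4 to EFNA1 they do. Panels that share a gene are not independent.

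Of the other 12 genes of the family, 9 were tested and had a median log2 fold change of 0.08. Of these, 4 fell, where 19.2% of all tested genes did, and 1 rose, where 19.3% did. The 4 that fell were the A-type receptors EPHA3, EPHA6 and EPHA7, known mainly from the developing nervous system, and the A-type ligand EFNA5, ephrin-A5. EPHA7 was at 8.42, 7.01 and 7.95 CPM in control and at 2.23, 2.34 and 2.32 CPM in knockdown. The log2 fold change was -1.73 ± 0.16 (SE; edgeR adjusted p 6.31e-08), beside -1.39 ± 0.07 (SE) for IRS2 itself.

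EPHA3 fell from 3.02, 2.55 and 2.45 CPM to 0.698, 0.938 and 0.607 CPM, a log2 fold change of -1.80 ± 0.27 (SE; edgeR adjusted p 2.70e-05). EPHA6, with 5 to 21 reads per library, had a log2 fold change of -1.49 ± 0.36 (SE; edgeR adjusted p 0.00262). EFNA5 fell from 6.67, 7.01 and 6.60 CPM to 4.05, 4.16 and 3.48 CPM (log2 fold change -0.77 ± 0.14 SE, edgeR adjusted p 0.000299). In none of these 4 genes did the groups overlap. They are listed together because they passed as lower in the same libraries, so this is no separate support. Of 7 fibroblast markers, 3 were tested and 2 fell, where 19.2% of all tested genes did. The 2 were COL1A1 and COL3A1, with log2 fold changes of -1.15 and -1.71. Without control replicate 1, where collagen reads were highest, these were -0.50 and -1.04, the latter no longer past the threshold (edgeR adjusted p 0.179). Without that library the log2 fold change was -1.70 for EPHA3 and -1.67 for EPHA7. In CPM, COL1A1, PDGFRA, DCN and LUM were lower in every knockdown library than in any control library, as were 28.8% of all tested genes. PDGFRA, DCN and LUM had at most 11 reads in a library. COL1A2, COL3A1 and PDGFRB overlapped between groups. Of the 6 tested colon epithelium markers, 2 fell and 1 rose, beside 19.2% and 19.3% of all tested genes. KRT19 and EPCAM fell, with log2 fold changes of -0.47 and -0.21, and CDX2 rose with 0.14. Whether the falls of EPHA3 and EPHA7 are tied to markers of either kind was not tested. In bulk RNA, fewer cells that carry a transcript and less of it per cell cannot be told apart.

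EFNB3, ephrin-B3, was the family gene outside the members that rose. It was at 8.90, 9.63 and 10.6 CPM in control and at 12.1, 14.4 and 12.8 CPM in knockdown, with a log2 fold change of 0.47 ± 0.10 (SE; edgeR adjusted p 0.00124). The 3 B-type ligands therefore had unlike values, 0.47 for EFNB3, 0.08 for EFNB1 and -0.29 for EFNB2. EPHB6, a receptor without kinase activity, did not pass (log2 fold change 0.08, edgeR adjusted p 0.313), nor did EPHA8 (0.82, adjusted p 0.0872) or EPHA10 (0.35, adjusted p 0.246). Leaving out 1 library lowered EPHA8 to 0.54 (control replicate 2) and EPHA10 to 0.20 (knockdown replicate 1), and raised EPHB6 to 0.12 (knockdown replicate 3). EPHB1, EPHA5 and EFNA2 had at most 15 reads in a library and failed the low-count filter. Without that filter EPHB1, a B-type receptor with 7, 9 and 3 reads in control and 1, 1 and 2 in knockdown, passed as lower (log2 fold change -2.51, edgeR adjusted p 0.00708). EPHA5 and EFNA2 did not pass in that fit (edgeR adjusted p 0.261 and 0.196).

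**Figure D4:**
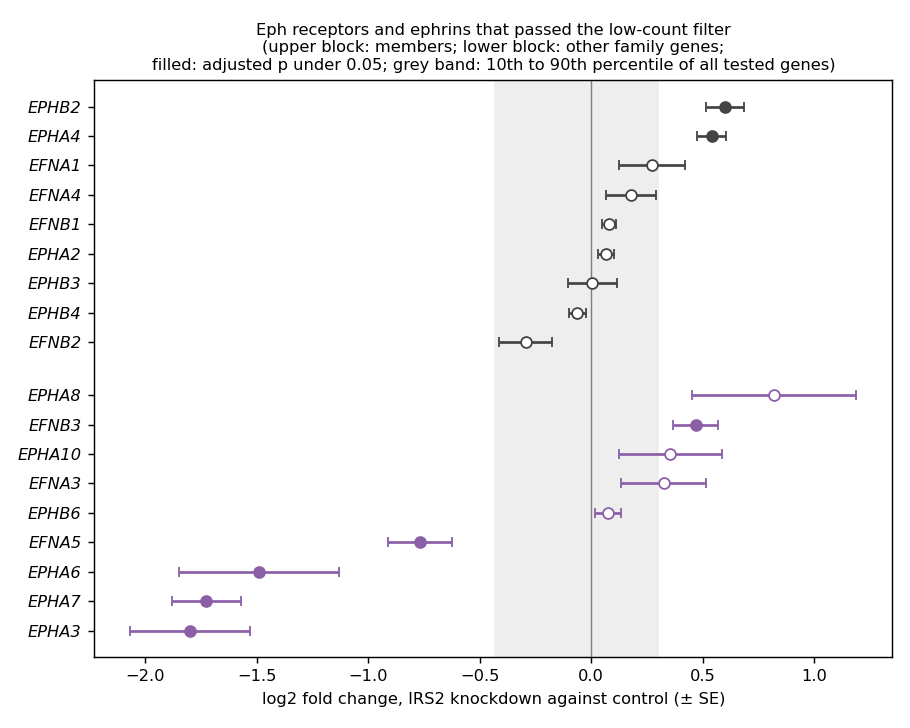
Log2 fold change of IRS2 knockdown against control (x axis, ± SE) of the 9 tested members and 9 other tested family genes (y axis), filled where the edgeR adjusted p is under 0.05, over a grey band from the 10th to the 90th percentile of all tested genes. EPHB2 and EPHA4 lie to the right of the band at 0.60 and 0.54, as do EFNB3 (filled) and EPHA8, EPHA10 and EFNA3 (open). EPHA3, EPHA7, EPHA6 and EFNA5 lie to its left.

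Proteins that carry or end Eph signals were taken from a list of 38 genes, of which 33 were tested. Of these, 9 rose and 3 fell, beside 19.3% and 19.2% of all tested genes. The list's median log2 fold change was 0.04. CHN2, which encodes beta2-chimaerin, an inactivator of the GTPase Rac, rose by a log2 fold change of 1.11 (edgeR adjusted p 2.91e-10), with group means of 14.4 ± 0.163 and 30.5 ± 0.263 CPM (SD, n = 3). ARHGEF16, which encodes a protein that binds EPHA2, rose by a log2 fold change of 0.77 (edgeR adjusted p 6.52e-08), its means being 16.1 ± 0.506 and 26.8 ± 0.830 CPM (SD, n = 3). The SRC family kinase YES1 and the sheddase ADAM17 rose by less, with log2 fold changes of 0.42 and 0.31. The related genes CHN1 and ADAM10 of the same list, named after their values were seen, did not pass. Their log2 fold changes were -0.02 (edgeR adjusted p 0.777) and 0.10 (edgeR adjusted p 0.0628). INPPL1, the lipid phosphatase SHIP2 that binds EPHA2, fell with a log2 fold change of -0.21 ± 0.04 (SE; edgeR adjusted p 0.000541). The 2 other falls, named after their values were seen, were GRIP1 and NGEF, both with few reads. GRIP1, a scaffold that binds the tails of B-type ephrins, had 6 to 23 reads per library (log2 fold change -1.46 ± 0.35 SE, edgeR adjusted p 0.00275). NGEF, which encodes ephexin, a protein that binds EPHA4, had 41 to 56 (log2 fold change -0.49 ± 0.18 SE, edgeR adjusted p 0.0359). NGEF did not pass without any one of 4 libraries (edgeR adjusted p 0.127 without control replicate 1, 0.0834 without control replicate 2, 0.0737 without knockdown replicate 1 and 0.110 without knockdown replicate 2) nor with the replicate block (edgeR adjusted p 0.0554).

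Genes that mark positions along the crypt gave context for EPHB2. Of 12 crypt base genes, 9 were tested, 4 rose (RNF43, NKD1, TNFRSF19 and AXIN2) and 2 fell (CDCA7 and RGMB), where 38.5% of all tested genes were called in either direction. The log2 fold change of RNF43, a brake on Wnt receptors, was 0.48 and that of TNFRSF19 was 0.38, while those of NKD1 and AXIN2 were 0.22 and 0.14. CDCA7 and RGMB had log2 fold changes of -0.14 and -0.23. The edgeR adjusted p was at most 0.0120 for these 6 genes, and that of RGMB was 0.0505 without control replicate 3. CDCA7 had an adjusted p of 0.0875 with the uncentred correction for length and GC content. The 3 other tested crypt base genes, named after their values were seen, did not pass. They were LGR5 (0.15, edgeR adjusted p 0.240), ASCL2 (-0.11, edgeR adjusted p 0.123) and SOX9 (0.07, edgeR adjusted p 0.0853). OLFM4, SMOC2 and PROM1 of this list had at most 1 read in a library and failed the low-count filter. The median log2 fold change of the 9 tested crypt base genes was 0.14. Of 12 upper crypt genes, 9 had no read in any library and 2 were tested. These 2, named after their values were seen, went in opposite directions, CA2 (carbonic anhydrase 2) with -1.20 and CEACAM1 with 0.49. CEACAM1 did not pass DESeq2's Wald test (adjusted p 0.0690).

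The genes whose 6 log2 CPM values, each gene centred on its mean, lay closest to those of EPHB2 were PIR, CDC37L1 and AFAP1L2, at distances of 0.102, 0.104 and 0.116 log2 units among 10439 genes outside the family. For EPHB3 they were RAVER2, NORAD and CEP78, at distances of 0.0302, 0.0360 and 0.0395.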

How the data were processed

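The 6 SW403 libraries were made from total RNA for RNA-seq. The authors deposited counts of reads per gene symbol and a second table that holds a normalized signal, those counts divided by 1 constant per library (0.847 to 1.25). Build hg19 and the tools STAR 2.6.1a, Salmon and DESeq2 are listed, without roles, per the submitters' processing notes. The annotation and strand setting are not given in the sources used here. Positions, transcript lengths and overlaps came from GENCODE version 44 on GRCh37, which may not be the annotation counted.

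Here the counts were tested with edgeR 4.0.16 (R 4.3.3; TMM factors, filterByExpr, quasi-likelihood F-test, group as the only term), with Benjamini-Hochberg adjustment over 13832 genes. SE was taken as the size of the log2 fold change over the root of the F statistic, and CPM uses each library's total. RPKM values were computed here. Amplified reads without molecular identifiers are not independent molecules. The alternatives were DESeq2 1.42.0 (size factors, Wald test), limma 3.58.1 (voom, and log2 of the deposited values plus 1), upper-quartile factors, library size alone, other count filters, thinning to the smallest library, a spline correction for transcript length and GC content (96.3% of tested genes had a transcript), the same correction centred within each library, a replicate block, an adjusted p of 0.01 and leaving out each library. Simulated counts covered 13700 genes, of which 100 were changed 1.5-fold and 97 were changed 2-fold, in both directions. Of these, 74% and 89.7% were recovered, and 6.40% of all calls were false. In the data 38.5% of genes were called, a far larger share, so these rates may not hold for them. The members and lists were chosen with earlier results of these data known. Named genes were all members, tested family genes, up to 4 genes per direction with the smallest p and a mean of at least 100 counts from the partner and crypt lists, and the 3 genes closest to EPHB2 and to EPHB3. The centred correction was added after the results of the uncentred one, which also moves the library scale, had been seen, and coding length was added after the data were seen. Marker genes were named outside the rule. No column of either table was set aside.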

Additional observations from a re-analysis of the deposited data

How the results depend on the processing

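EPHB2 and EPHA4 kept their direction and an adjusted p under 0.05 in all 20 alternative fits, with log2 fold changes of 0.55 to 0.68 and 0.45 to 0.62. The same held for EFNB3, EFNA5 and EPHA7 in 20 fits and for EPHA3 and EPHA6 in the 19 that tested them. EPHB3 changed sign: -0.0145 with upper-quartile factors, -0.0244 with library size alone, -0.0067 where only genes averaging at least 50 counts were kept, and -0.0185 to 0.0375 without 1 library. EFNB2 passed in those first 3 settings (-0.314, -0.324 and -0.306), giving 1 lower member in each, against 0. These settings called 3012, 3198 and 2339 of all tested genes lower, against 2653 (13832 genes tested, but 11581 in the third). EFNB1 passed without the low-count filter (0.0909) and in limma on the deposited values (0.0871). With a mean of at least 50 counts, 2 other family genes and 1 partner were lower, fewer genes being tested.

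Which members were called depended most on the correction for length and GC content. As first run, it also moved the library scale, taking the median log2 fold change of all genes from -0.0039 to 0.0566. It called 4 members higher, adding EFNB1 (0.107, or 0.106 with the replicate block) and EPHA2 (0.0965, or 0.0974 with the block). It also called 15 partners higher, with or without the block, and 1 crypt gene was lower with the block. Of all 13832 tested genes, this correction called 4180 higher, or 4070 with the block, against 2676 in the main fit. Centring it within each library left the scale to TMM. That version was chosen after the uncentred results were seen, and it called 2911 of all 13832 tested genes lower. Among these were 2 members, EFNB2 (-0.305) and EPHB4 (-0.0912). With the block neither passed (edgeR adjusted p 0.0607 and 0.0538). EPHB3 was at -0.0251, or -0.0265 with the block. EFNB1 and EPHA2 did not pass in it, so neither version settles these 4 members. The log2 ratio difference of EFNA4 to EFNA1 ran from -0.20 to 0.0035 without 1 library. The cause of the other changes was not tested.

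Replicate numbers are shared by the groups, but the deviations of same-numbered libraries had correlations of -0.08, -0.03 and -0.20. Of 6 libraries, 0 correlated best with their own number. These values show no pairing by number, but so few libraries cannot exclude one. With the replicate block the log2 fold change was 0.60 for EPHB2 (edgeR adjusted p 0.000102) and 0.54 for EPHA4 (edgeR adjusted p 9.49e-06), no member call changed, and 2455 higher and 2407 lower genes were called. Without the low-count filter, EPHB1 passed as lower (-2.51). Depth limits EPHA1, EPHB1, EPHA5 and EFNA2 most.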
